A study of Mus musculus with 18 samples.

Results

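Natriuretic peptides are small hormones made mainly by heart muscle cells. Nppa encodes the precursor of atrial natriuretic peptide (ANP) and Nppb that of brain natriuretic peptide (BNP). Corin, a serine protease on the surface of cardiomyocytes, cuts the ANP precursor, and furin, a proprotein convertase of the trans-Golgi network, cuts the BNP precursor and many other proteins. The mature peptides bind NPR-A, the receptor guanylyl cyclase encoded by Npr1, which makes cyclic GMP. Npr2 encodes NPR-B, the related cyclase that prefers the C-type peptide, and Npr3 encodes NPR-C, which takes the peptides up and clears them. In ventricles, Nppa and Nppb are high before birth and are known as markers of wall stress in the adult. The 7 genes were chosen by name, with earlier results of these data known. All 7 were found among the 10597 genes of the deposited tables. They passed the minimum mean of 10 normalized reads in RNA and in footprints.

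The samples were left ventricles of untreated male C57BL/6 mice aged 20 weeks, 4 wild type (hearts 1 to 4) and 5 mORF4/NBDY KO (hearts 6 to 10). NBDY, also called NoBody, is a short protein that binds decapping proteins of mRNA. The sources used here do not say how the knockout was made. Each heart gave 1 library of poly-A RNA and 1 of ribosome footprints, the stretches of mRNA that a translating ribosome shields from nuclease. Values are normalized reads, which are gene counts divided by 1 size factor per library, and efficiency is the footprint value over the RNA value of the same heart. Differences are knockout minus wild type on the scale of log2(value + 1), with limma's adjusted p below 0.05 as the threshold.

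Library depth is given in Mreads (1e6 reads). RNA libraries held 11.2 to 12.4 Mreads in wild type and 15.8 to 20.2 Mreads in knockout, so every knockout library was deeper and an RNA batch cannot be told apart from genotype. Footprint libraries held 6.67 to 36.7 Mreads and 22.9 to 40.8 Mreads, with wild-type heart 2 the shallowest. The members rested on 78 to 6627 RNA reads and 142 to 60421 footprint reads per library. Footprints of Nbdy, the targeted gene, were 7.78% of the wild-type mean in knockout. All 8 cardiomyocyte markers were listed, while Sln and Bmp10 among the atrial markers and all 4 epicardial markers were not among the genes analysed here. In tissue libraries, fewer cells of a type and less RNA per cell cannot be told apart.

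Nppb (ENSMUSG00000029019) lies on chromosome 4, 147985786 to 147987205, and Nppa (ENSMUSG00000041616) on the same chromosome, 148000722 to 148002074 (GRCm38), with 13.5 kb between them. The stretches below come from the promoters of these neighbours and show letters that GATA factors and the TATA-binding protein are known to bind. They are shown because these neighbours are the peptide genes whose RNA and footprint values the results turn on. Capitals mark TGATAA or AGATAA, searched on both strands, or TATAAAA, searched on the strand of the gene, in the 250 bases before the RefSeq start site. In order, the stretches are chr4:148000588-148000617, chr4:148000692-148000721, chr4:147985798-147985827 and chr4:147985857-147985886, all on the plus strand of GRCm38.p6.
Nppa GATA: gctttgccgaacTGATAActttaaaagggc
Nppa TATA: cttctcaaagagctggggggcTATAAAAac
Nppb GATA: atgcagcTGATAAatcagAGATAAccccac
Nppb TATA: actcagccccagTATAAAAggcagaggcac
Nppa held 1 GATA match, 122 bases before its start site, and Nppb held 2, at 95 and 84 bases before its own. The TATA match lay 9 bases before the start site in Nppa and 31 bases before it in Nppb. Of 32536 promoter windows of that length, 16.5% held at least 1 GATA match, 2.62% held 2 or more, and 2.98% held the TATA letters. None of the windows of Corin, Furin, Npr1, Npr2 and Npr3 held the GATA or the TATA letters. Letters listed for NKX2-5 (AAGTG) and as MCAT (CATTCC) were also searched, on both strands. AAGTG was found 2 times in Nppa, 4 times in a window of Furin and in no other member, and in 40.6% of all windows. CATTCC was found 1 time in Nppb and in no other member, and in 12.6% of all windows. The RefSeq start site used for Nppb lies inside the gene span given above, so its stretches also lie within a longer transcript model. These matches describe letters and show no binding.

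Ribosome footprints on Nppb fell in knockout hearts while its transcript did not pass the test. Nppb RNA was 2048, 1758, 1466 and 1286 normalized reads in wild-type hearts 1 to 4 and 1870, 1631, 1480, 1599 and 2812 in knockout hearts 6 to 10. The genotypes overlapped in RNA, and heart 10 lay above all others. Nppb footprints were 16340, 14758, 12460 and 10791 normalized reads in hearts 1 to 4 and 6660, 5620, 6367, 6678 and 9398 in hearts 6 to 10. Every knockout heart lay below every wild-type heart in footprints, heart 10 included. In footprints, 1.6% of the 9976 genes tested showed no overlap between genotypes, and 0.832% lay lower in every knockout heart.

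The Nppb footprint mean was 13587 ± 2452 in wild type and 6945 ± 1437 in knockout (SD, 4 and 5 hearts), or 51.1% of the wild-type level. The difference was -0.97 ± 0.15 (SE; limma adjusted p = 0.0289), and 0.02% of genes were called in footprints, 5.06% at an unadjusted p below 0.05. In RNA the difference was 0.18 ± 0.18 (SE; limma adjusted p = 0.438), while 49.4% of the 10580 genes tested were called. edgeR and DESeq2 on whole footprint reads gave adjusted p = 0.0387 and 5.25e-06 for Nppb. The authors' deposited table gives Nppb footprints the same adjusted p of 5.25e-06 as DESeq2 here, so it adds no separate result. In that column 0.0583% of genes are below 0.05. The limma call was lost on leaving out any of hearts 1, 2, 3, 6, 7, 8 and 9 (adjusted p from 0.100 to 0.194), with no filter on low values (0.0587) and without a mean-variance trend (0.871 from an unadjusted p of 0.000388). The difference stayed between -1.09 and -0.88 with 1 heart left out.

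Set against the transcript of the same heart, Nppb occupancy separated the genotypes more widely. Efficiency of Nppb was 7.98, 8.40, 8.50 and 8.39 in wild-type hearts and 3.56, 3.45, 4.30, 4.18 and 3.34 in knockout hearts. The 4 wild-type ratios lay within 1.06-fold of each other, although RNA and footprints each varied over 1.59-fold and 1.51-fold among the same hearts. Their coefficient of variation was 2.76%, and 0.451% of 9971 genes had one as low or lower, against a median of 19.1%. In knockout hearts it was 11.7%, and 23.0% of genes had one as low or lower. Knockout heart 10, highest in its group in RNA and in footprints, had the lowest ratio of all 9 hearts.

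**Figure D1:**
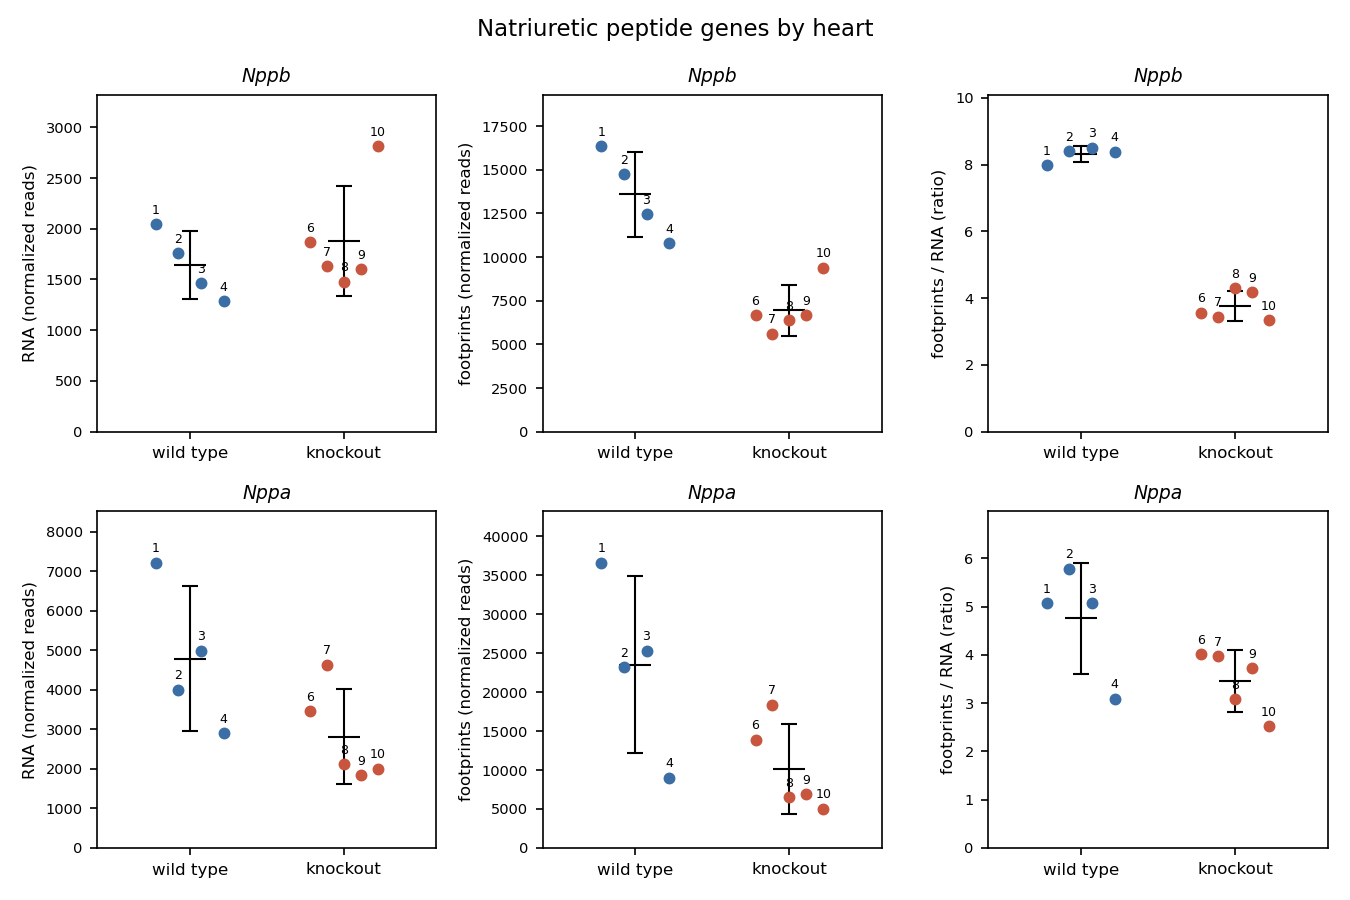
Normalized reads of RNA and of footprints, and their ratio, for Nppb (top) and Nppa (bottom). Points are hearts with their numbers, and bars are the mean and SD of 4 wild-type and 5 knockout hearts; the Nppb ratio is 7.98 to 8.50 in wild type and 3.34 to 4.30 in knockout, while Nppa values overlap in each panel.

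The mean Nppb efficiency was 8.32 ± 0.229 in wild type and 3.77 ± 0.442 in knockout (SD, 4 and 5 hearts), or 45.3% of the wild-type mean. The difference was -1.15 ± 0.26 (SE; limma interaction, adjusted p = 0.0053), and 14.4% of the 9974 genes tested were called in efficiency, 6.55% lower in knockout. It stayed called in each of the 18 alternatives, with values between -1.23 and -1.11 and the adjusted p at most 0.0195. Genotypes did not overlap in efficiency for 18.3% of genes, and 8.74% lay lower in every knockout heart. The ratio contains the RNA value, whose libraries differed in depth between genotypes, and the part of depth in the Nppb ratio was not tested. In the authors' deposited table, where 16.0% of genes have an efficiency adjusted p below 0.05, Nppb is 1 of 2 genes tagged "exclusive", the other being the immunoglobulin gene Ighg2c, and 1609 genes are tagged "buffered".

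A ratio of 2 members' efficiencies within a heart does not depend on the size factors. Nppb efficiency over that of Corin was 2.49 to 3.48 in wild type and 1.32 to 1.58 in knockout. Over that of Nppa it was 1.45 to 2.71 and 0.868 to 1.40. Against 5 of the 6 other members every knockout heart lay below every wild-type heart, and against Npr2 the ranges of 4.89 to 7.82 and 2.92 to 5.45 overlapped. Among single genes 8.74% lay lower in efficiency in every knockout heart, and no share was computed for ratios of 2 genes. These ratios still contain RNA values, in which a batch cannot be told apart from genotype. All 6 ratios share the Nppb efficiency, which by itself did not overlap between genotypes, so they are not separate results. These ratios were set up after the values were seen and were not tested.

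Nppa varied widely among hearts of 1 genotype, and its transcript and footprints went up and down together. Nppa RNA was 7219, 4006, 4995 and 2907 normalized reads in wild-type hearts and 3452, 4632, 2113, 1846 and 2003 in knockout hearts. Wild-type heart 1 was highest and knockout hearts 8, 9 and 10 lowest, and the genotypes overlapped. Nppa footprints were 36633, 23176, 25305 and 8994 in hearts 1 to 4 and 13872, 18388, 6509, 6873 and 5058 in hearts 6 to 10, again with overlap.

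Nppa RNA fell by 0.79 on the log2 scale (SE 0.30; limma adjusted p = 0.0452), from 4782 ± 1835 to 2809 ± 1204 (SD, 4 and 5 hearts). In RNA 25.1% of genes were called lower. The Nppa call was lost on leaving out any of hearts 1, 2, 3, 8, 9 and 10 (adjusted p from 0.0651 to 0.141), with quantile normalization (0.0676) and without a trend (0.071). The authors' deposited table gives an adjusted p of 0.0961 for Nppa RNA, in a column where 49.1% of genes are below 0.05. Footprints of Nppa differed by -1.23 ± 0.37 (SE), with an unadjusted p of 0.00414 and a limma adjusted p of 0.851. Efficiency of Nppa was 5.07, 5.79, 5.07 and 3.09 in wild type and 4.02, 3.97, 3.08, 3.72 and 2.53 in knockout. The difference was -0.44 ± 0.57 (SE; limma adjusted p = 0.668) in the main fit, which ignores that both libraries share a heart. With the heart as a fixed block the SE was 0.18 (limma adjusted p = 0.0959). As a random block it was 0.48 (limma adjusted p = 0.567).

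Nppa is an atrial gene in the adult, so atrial markers are set beside it. Myl7, the atrial regulatory light chain, had 266, 212, 11.4 and 50.1 normalized RNA reads in hearts 1 to 4 and 791, 447, 48.3, 335 and 94.5 in hearts 6 to 10. Heart 1 was the highest wild-type heart in both Myl7 and Nppa RNA, and hearts 6 and 7 were the highest knockout hearts in both. Other hearts went apart: heart 3 was lowest in Myl7 but had Nppa RNA at 4995, above hearts 2 and 4. Heart 9, with Myl7 at 335, had the lowest Nppa RNA, 1846. Among wild-type hearts Myl4 RNA was lowest in heart 1 (8169) and highest in heart 4 (13618), the reverse of Nppa. Myl4 footprints, at 1419, 1595, 609 and 726 in hearts 1 to 4, were instead higher in heart 1 than in heart 4. Between genotypes, Myl4 RNA lay lower in every knockout heart (-1.56, limma adjusted p = 6.07e-06). Its footprints did not pass (0.25, limma adjusted p = 0.915). Across genotypes, heart 6 was highest in Myl7 and heart 1 in Nppa, and the mean of Myl7 was 135 ± 123 in wild type and 343 ± 300.0 in knockout (SD, 4 and 5 hearts). The summed RNA of the 5 listed atrial markers, of 8 fixed, was 9305 to 14358 in wild type and 4106 to 5488 in knockout, most of it Myl4, and the summed footprints were 2073 to 4842 and 2126 to 7981. Their part in the Nppa result was not tested.

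Across the 9 hearts, 2 relations were tested over both genotypes. Nppa RNA and Nppa footprints rose together (Pearson's r = 0.97, exact permutation p = 7.99e-05, adjusted 0.00016; Spearman's rho = 0.93, exact permutation p = 0.00075, adjusted 0.0015). Without hearts 1 and 9, the farthest from the median, r was 0.97. Nppa RNA and Nppb RNA showed no such relation (r = -0.05, exact permutation p = 0.91, adjusted 0.91; rho = 0.07, exact permutation p = 0.88, adjusted 0.88), and without hearts 1 and 9 r was -0.40. Nppb footprints fell into separate ranges by genotype, so no relation of theirs was tested over both genotypes. These tests ignore genotype, in which Nppa itself differed, so 4 relations were computed again on values centred on the mean of each genotype and permuted within genotype, a choice made after seeing the data.

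Within genotypes, Nppa RNA and footprints again went together (r = 0.95, exact permutation p = 0.00208, adjusted 0.00694; rho = 0.95, exact permutation p = 0.00278, adjusted 0.0111), with r at 0.92 without hearts 1 and 7. Nppb RNA and footprints did so too (r = 0.93, exact permutation p = 0.00347, adjusted 0.00694; rho = 0.82, exact permutation p = 0.016, adjusted 0.0319), with r at 0.75 without hearts 1 and 10. The relation of Nppa with Nppb did not pass in RNA (r = 0.17, exact permutation p = 0.688, adjusted 0.917; rho = 0.40, exact permutation p = 0.324, adjusted 0.432) or in footprints (r = -0.02, exact permutation p = 0.957, adjusted 0.957; rho = 0.00, exact permutation p = 1, adjusted 1). Without the hearts farthest from the median these r were 0.13 and 0.01. All tests were two-sided.

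**Figure D2:**
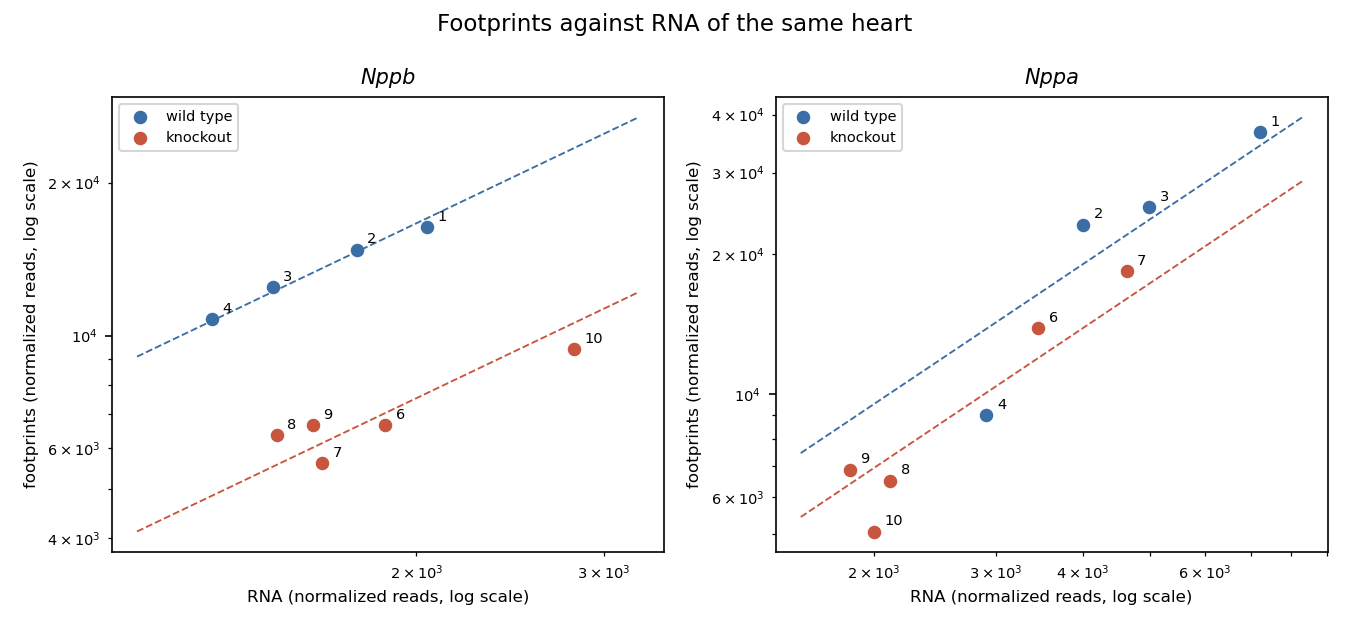
Normalized footprint reads against normalized RNA reads of the same heart, on log axes, for Nppb (left) and Nppa (right). Points are hearts with their numbers, and each dashed line is the mean ratio of 1 genotype; for Nppb the knockout hearts lie along a line at 3.77 below the wild-type line at 8.32, and for Nppa the genotypes overlap.

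The genes most like each peptide gene over the 9 hearts were ranked by Pearson's r of log2 values, as a description. For Nppa RNA they were Pik3c2a (0.96), Ddhd1 (0.95), Notch2 (0.94), Slx4 (0.93) and Clic5 (0.91) among 10580 genes. For Nppb RNA they were Tm9sf4 (0.92), Id2 (0.90), Ms4a4a (0.89), Cd74 (0.89) and Zgpat (0.89). In footprints, over 9976 genes, Mphosph6 (0.95), Tnip1 (0.93), Eno1b (0.91), Ankrd23 (0.91) and Zswim6 (0.90) were most like Nppa. Snx17 (0.94), Rsph3b (0.92), Tspan7 (0.92), Ndufs8 (0.91) and Zcrb1 (0.91) were most like Nppb. No gene stood in more than 1 of these 4 lists, and the other members reached at most 0.83, for Npr2 with Nppb in footprints. All these r run over both genotypes, so those of Nppb footprints also carry the difference between genotypes.

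Of the processing enzymes, Corin had a slightly higher transcript level in knockout hearts and Furin did not pass in any measure. Corin (chromosome 5, 72299948 to 72504540) had 2937, 3018, 2604 and 2666 normalized RNA reads in wild type and 3740, 2949, 2976, 3253 and 3228 in knockout. Heart 6 was highest, and hearts 7 and 8 lay within the wild-type range. The difference was 0.20 ± 0.07 (SE; limma adjusted p = 0.0436), while 24.3% of genes were called higher. The Corin call was lost on leaving out any of hearts 3, 4, 6, 9 and 10 (adjusted p from 0.0707 to 0.123) and without a trend (0.0748).

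Corin footprints were 9402, 7286, 8904 and 7461 in hearts 1 to 4 and 9638, 7524, 8438, 8605 and 8158 in hearts 6 to 10, and the genotypes overlapped. Their difference was 0.04 ± 0.11 (SE; limma adjusted p = 0.952). Efficiency of Corin was 2.41 to 3.42 in wild type and 2.53 to 2.84 in knockout, a difference of -0.16 ± 0.13 (SE; limma adjusted p = 0.479). Its knockout ratios had a coefficient of variation of 4.74%, the lowest of the 7 genes in that genotype.

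Furin (chromosome 7, 80389194 to 80405441) had RNA values of 1339 to 1432 in wild type and 1315 to 1681 in knockout. The difference was 0.13 ± 0.08 (SE; limma adjusted p = 0.203; 0.0343 with quantile normalization). Furin footprints were 1120, 1160, 931 and 573 in hearts 1 to 4 and 1328, 579, 666, 812 and 975 in hearts 6 to 10, a spread of over 2-fold within each genotype. The footprint difference was -0.13 ± 0.24 (SE; limma adjusted p = 0.93) and that of efficiency -0.25 ± 0.29 (SE; limma adjusted p = 0.618).

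Transcripts of both guanylyl cyclase receptors rose in knockout hearts, and their footprints did not pass the test. Npr1 (chromosome 3, 90450591 to 90465928) had 315, 304, 343 and 368 normalized RNA reads in wild type and 449, 516, 458, 439 and 477 in knockout. Every knockout heart lay above every wild-type heart, while 40.5% of genes did not overlap in RNA, 19.8% with knockout higher. Npr1 RNA rose by 0.49 ± 0.08 (SE; limma adjusted p = 0.000276).

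Npr1 footprints were 440, 490, 477 and 495 in hearts 1 to 4 and 576, 424, 481, 442 and 473 in hearts 6 to 10. The means, 475 ± 24.7 and 479 ± 58.7 (SD, 4 and 5 hearts), gave a difference of 0.00 ± 0.16 (SE; limma adjusted p = 0.997). Npr1 efficiency was 1.40, 1.61, 1.39 and 1.34 in wild type and 1.28, 0.821, 1.05, 1.01 and 0.991 in knockout, with no overlap. It fell by 0.49 on the log2 scale (SE 0.15; limma adjusted p = 0.0309), a call lost on leaving out any heart other than 6 (adjusted p from 0.0504 to 0.0895).

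Npr2 (chromosome 4, 43629015 to 43651437) had 1080, 890, 994 and 1002 RNA reads in wild type and 1158, 1173, 1174, 1278 and 1110 in knockout, again with no overlap. Its RNA rose by 0.25 ± 0.06 (SE; limma adjusted p = 0.00685). Spag8 overlaps Npr2, and the RNA kit does not mark strand, so their reads cannot be told apart.

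Npr2 footprints were 1373, 1529, 1271 and 1076 in hearts 1 to 4 and 1184, 1019, 927, 1014 and 1273 in hearts 6 to 10. They overlapped between genotypes, with a difference of -0.27 ± 0.14 (SE; limma adjusted p = 0.851). Npr2 efficiency fell by 0.53 on the log2 scale (SE 0.15; limma adjusted p = 0.0245), from 1.34 ± 0.272 to 0.924 ± 0.156 (SD, 4 and 5 hearts). That call was lost on leaving out any of hearts 2, 3, 7, 8 and 9 (adjusted p from 0.0574 to 0.0935). The authors' deposited table tags Npr1 and Npr2 as "buffered", with efficiency differences of -0.50 and -0.55 when turned to knockout over wild type. Both efficiency calls contain the RNA difference, which cannot be told apart from a batch of RNA libraries.

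Npr3 (chromosome 15, 11839896 to 11907837), the clearance receptor, had 109, 109, 170 and 139 RNA reads in wild type and 114, 92.3, 110, 85.3 and 116 in knockout. The difference was -0.33 ± 0.16 (SE; limma adjusted p = 0.0989; 0.0403 with quantile normalization). Npr3 footprints were 481, 604, 514 and 564 in hearts 1 to 4 and 326, 426, 506, 561 and 459 in hearts 6 to 10, a difference of -0.26 ± 0.18 (SE; limma adjusted p = 0.854). Efficiency of Npr3 was 4.27 ± 1.04 in wild type and 4.53 ± 1.35 in knockout (SD, 4 and 5 hearts; limma adjusted p = 0.898).

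**Figure D3:**
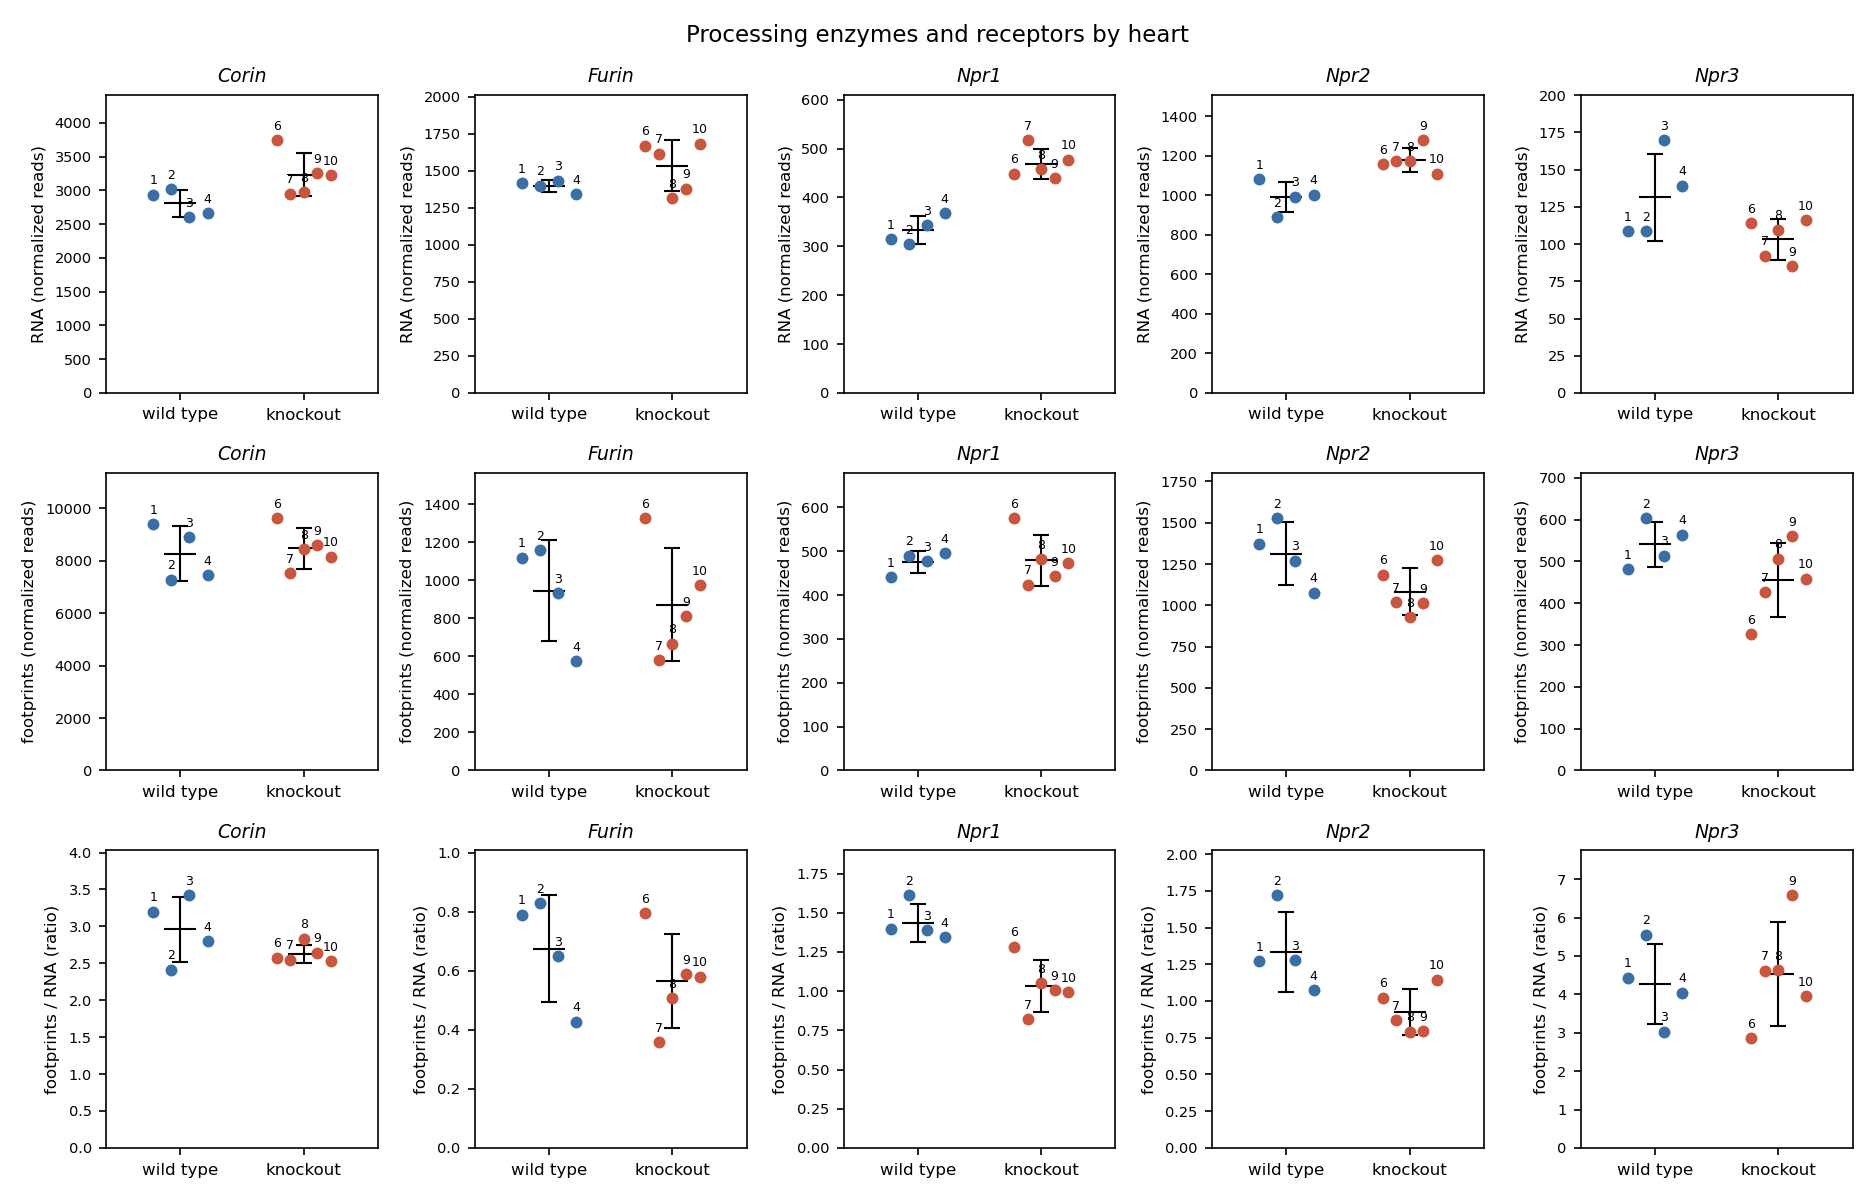
Normalized RNA reads (top), normalized footprint reads (middle) and their ratio (bottom) for Corin, Furin, Npr1, Npr2 and Npr3. Points are hearts with their numbers and bars are the mean and SD of 4 wild-type and 5 knockout hearts; Npr1 and Npr2 RNA show no overlap between genotypes, while footprints of all 5 genes overlap.

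Ratios between members within a library are given as a description, with no test. The RNA ratio of Npr3 to Npr1 was 0.345, 0.357, 0.494 and 0.379 in wild type and 0.254, 0.179, 0.239, 0.194 and 0.243 in knockout, with no overlap. It combines the higher Npr1 RNA of knockout hearts with an Npr3 RNA difference that did not pass, and 40.5% of single genes did not overlap in RNA. In footprints the same ratio was 1.09, 1.23, 1.08 and 1.14 in hearts 1 to 4 and 0.566, 1.00, 1.05, 1.27 and 0.970 in hearts 6 to 10, and the genotypes overlapped. The RNA ratio of Nppb to Nppa was 0.365 ± 0.0879 in wild type and 0.773 ± 0.401 in knockout (SD, 4 and 5 hearts), and its footprint ratio was 0.694 ± 0.347 and 0.919 ± 0.604, with overlap in both. Ratios of Npr2 to Npr1 and of Furin to Corin overlapped between genotypes in both assays.

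Npr1 and Npr3 are known from endothelial and endocardial cells, among others. The summed RNA of the 10 endothelial and endocardial markers was 16942 to 19017 normalized reads in wild type and 15056 to 17452 in knockout. Of these markers 3 rose and 4 fell in RNA, with Egfl7 at 0.53, Emcn at -0.67 and Cdh5 at -0.50, where 24.3% of all genes were called higher and 25.1% lower. In footprints the summed ranges of 28193 to 35763 and 26192 to 31414 overlapped, and no marker passed limma, with 0 at an unadjusted p below 0.05 and 0 by edgeR or DESeq2. Among 8 markers of pericytes and smooth muscle, limma called 4 higher in knockout RNA, 1 lower and 3 neither way. Those called higher were Tagln (0.51), Pdgfrb (0.45), Kcnj8 (0.45) and Notch3 (0.42), each with no overlap between genotypes, while Acta2 was lower (-0.41). Footprints of the 4 higher markers were at -0.11, 0.09, 0.07 and 0.27. None of the 8 passed limma in footprints, with 1 at an unadjusted p below 0.05 and 0 by edgeR or DESeq2. The part of either marker list in the receptor results was not tested.

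Over the 7 genes, 3 rose and 1 fell in RNA, 1 fell in footprints and 3 fell in efficiency. The RNA count of 4 of 7 lies near the 49.4% called among all genes. Of all genes, 0.02% were called in footprints and 14.4% in efficiency, 6.55% lower. Without the shallow heart 2 the counts were 3 higher and 0 lower in RNA, 0 in footprints and 1 lower in efficiency. The median difference of the 7 was 0.18 in RNA, -0.26 in footprints and -0.44 in efficiency, against 0.01, -0.00 and -0.02 over all genes tested.

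**Figure D4:**
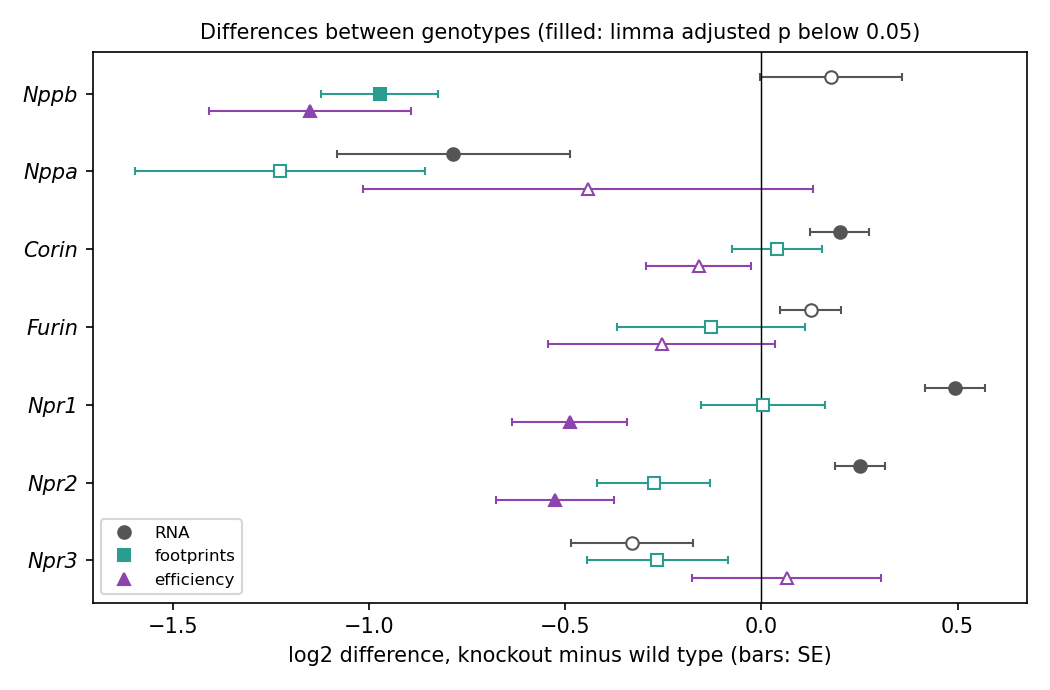
Differences between genotypes for the 7 genes, as knockout minus wild type on the scale of log2(value + 1), with bars for the SE and filled symbols for a limma adjusted p below 0.05. Nppb is filled for footprints (-0.97) and efficiency (-1.15) but not for RNA (0.18), whereas Npr1 and Npr2 are filled for RNA (0.49 and 0.25) and efficiency (-0.49 and -0.53) but not for footprints.

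Downstream of the receptors, cyclic GMP acts through protein kinase G and is broken down by phosphodiesterases. Of 26 genes fixed for cyclic GMP signalling 18 were listed, of which 2 rose, 5 fell and 11 did not pass in RNA, against 49.4% of all genes called. Prkg1, the main cyclic GMP-dependent kinase of heart and vessels, fell by 0.48 (limma adjusted p = 0.0202), with 209 ± 31.2 and 151 ± 25.8 normalized reads (SD, 4 and 5 hearts). The soluble guanylyl cyclase subunit Gucy1b1 fell by 0.27, the myosin phosphatase subunit Ppp1r12a by 0.42 and Rgs4, a regulator of G-protein signalling, by 0.41, and Mrvi1, a substrate of the kinase, rose by 0.37 (limma adjusted p at most 0.0135 for each).

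In footprints, 0 of 17 tested cyclic GMP genes passed limma, with 1 at an unadjusted p below 0.05 and 0 by edgeR or DESeq2. In efficiency 1 of 17 passed, Gucy1b1 at 0.35 (limma adjusted p = 0.0498), while 7.83% of all genes were called higher. That call contains the RNA difference of Gucy1b1, which cannot be told apart from a batch of RNA libraries. Pde2a, a phosphodiesterase that cyclic GMP stimulates, had 1104 ± 152 and 1240 ± 105 normalized RNA reads (SD, 4 and 5 hearts) and is listed at 0 in all footprint libraries, so it was left untested there. The list's median differences were -0.09 in RNA, 0.09 in footprints and 0.23 in efficiency. Pde3a, a phosphodiesterase of cardiomyocytes that cyclic GMP inhibits, differed by -0.04 in RNA and 0.13 in footprints.

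Of 20 genes fixed for peptide supply and clearance 9 were listed, of which 2 rose and 2 fell in RNA, a share near the 49.4% called among all genes. Pcsk7, a proprotein convertase, and Sort1, a sorting receptor, rose by 0.45 and 0.41 (limma adjusted p = 0.00143 and 0.00308). Galnt1, an enzyme that starts O-glycosylation, and Pam, which amidates peptides and is abundant in atrial granules, fell by 0.23 and 0.37 (limma adjusted p = 0.00273 and 0.0171). Pcsk6, which activates corin, differed by 0.17 in RNA (limma adjusted p = 0.0998) and 0.02 in footprints. None of the 9 passed limma in footprints (1 at an unadjusted p below 0.05; 0 by edgeR or DESeq2) or in efficiency (1 at an unadjusted p below 0.05, as were 27.8% of all genes). The list's medians were 0.05, -0.07 and -0.08 in RNA, footprints and efficiency.

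Of 17 listed transcription factors known to act on the Nppa and Nppb promoters, 2 rose, 7 fell and 8 did not pass in RNA. That count of 9 called is near the 49.4% called among all genes. Gata4 and Nkx2-5, both core cardiac factors, rose by 0.22 and 0.42, while Mef2d, Srf and Myocd fell by 0.87, 0.86 and 0.54 (limma adjusted p at most 0.00767 for each). In footprints 0 of 17 passed limma, with 4 at an unadjusted p below 0.05 and 0 by edgeR or DESeq2. Those 4 were Egr1, Jun, Myocd and Tbx20, at 1.54, 0.46, 0.30 and 0.24. Gata4, Nkx2-5, Mef2d and Srf were at 0.13, -0.24, 0.19 and 0.12. In efficiency 6 rose and 1 fell, against 7.83% of all genes called higher and 6.55% lower, with Mef2d at 1.05, Srf at 0.98 and Nkx2-5 at -0.67. The efficiency differences of these factors contain their RNA differences, which cannot be told apart from a batch of RNA libraries. The list's medians were -0.19, 0.13 and 0.44 in RNA, footprints and efficiency.

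Among other genes of the stress and fetal programme no footprint difference passed limma. Of 13 listed, 3 rose and 5 fell in RNA, 0 passed limma in footprints (2 at an unadjusted p below 0.05; 0 by edgeR or DESeq2), and 1 rose and 1 fell in efficiency. Among all genes 49.4% were called in RNA and 14.4% in efficiency. Skeletal actin, Acta1, fell by 0.89 in RNA (limma adjusted p = 0.0239) and was at -1.25 in footprints (unadjusted p = 0.000149; limma adjusted p = 0.293), with no overlap between genotypes in footprints. Its efficiency, 3.01 ± 0.174 and 2.36 ± 0.293 (SD, 4 and 5 hearts), lay lower in every knockout heart but did not pass (limma adjusted p = 0.651), and Acta1 was singled out after its values were seen. The stress-responsive ankyrin repeat gene Ankrd1 fell by 1.10 in RNA and was at -0.53 in footprints. Xirp2 fell by 0.64 in RNA (limma adjusted p = 0.000118) and was at -0.20 in footprints. Myh7 went the other way from Acta1 in footprints, at 0.73, with -0.12 in RNA, and passed in neither (limma adjusted p = 0.854 and 0.653). Enah, an actin regulator, and Uchl1, a deubiquitinase, differed in efficiency by 1.22 and -1.13 (limma adjusted p = 0.00706 and 0.0359) while their footprints were at 0.07 and 0.11. Their RNA differed by -1.15 and 1.24 (limma adjusted p = 4.5e-05 and 0.0013). Both efficiency calls contain that RNA difference, which cannot be told apart from a batch of RNA libraries. The list's medians were -0.13, -0.14 and -0.05.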

How the data were processed

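RNA and footprint libraries of 9 left ventricles were used, 18 in all. Per the labels' protocols, RNA libraries came from a TruSeq kit and footprint libraries from a NEXTflex small RNA kit. The tools named, per the submitters' processing notes, are HTSeq, DESeq2 and STAR (2.7.1a), and the build is GRCm38 (mm10); the step each tool was used for is not stated. The authors deposited normalized read signal per gene, gene counts divided by 1 size factor per library from the values, and an efficiency ratio that matched the quotient of the other tables within 0.0497%. Deposited columns also give a log2 fold change and a p-value per the file headers, and the deposited efficiency fold change has the sign of wild type over knockout.

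Whole reads were recovered for 100% of footprint values (tolerance 0.01 reads) by dividing by the step of each library, and edgeR 4.0.16 and DESeq2 1.42.0 were run on them and called 2 and 6 genes. RNA values were also whole multiples of a step in each library (100%, same tolerance), and RNA read totals rest on these steps. In knockout RNA libraries, however, just 43 to 72 genes had 1 to 20 reads, too few for the separate check of the step at low values, so the planned edgeR test on RNA was not run. Main tests used limma 3.58.1 (R 4.3.3) on log2(value + 1) with the trend option, a minimum mean of 10 and Benjamini-Hochberg adjustment over all genes tested. This scale understates the change of low genes. Efficiency was the genotype by assay interaction with no heart term. The fit was tested on simulated data.

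Libraries of the same number come from 1 heart, per the labels. Deviations from genotype means over 8066 genes correlated between the assays of a heart at 0.208 to 0.502, and 8 of 9 hearts correlated best with themselves. No 2 footprint libraries of a genotype agreed within sampling noise (chi-square per degree of freedom at least 27.4).

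The members and lists were chosen with earlier results of these data known. Named genes were the 7 members, the called genes with the smallest adjusted p of each list or those whose role is needed, and the 5 genes most like Nppa and Nppb. Symbols came from the gene name table, and promoter sequences of all 7 members from RefSeq (GRCm38.p6). Gene lengths per transcript were not used here, so levels of different genes are not compared. Alternatives were other pseudocounts, filters, scalings, no trend, each heart left out, and the heart as a block.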

Additional observations from a re-analysis of the deposited data

Results flagged for a closer look

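In knockout hearts, Nppb footprints of heart 10 stood apart at 9398 normalized reads, with a gap to the next heart of 0.72 of the group's range. Its Nppb RNA, 2812, was also the highest of all hearts, and its ratio of 3.34 the lowest. Without heart 10 the Nppb footprint difference was -1.09 (limma adjusted p = 0.00599). This was 1 flag among 58 groups of values examined, and chance alone flags about 1 group in 20.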

How the results depend on the processing

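Of 364 member differences under alternatives, 316 kept their direction and their side of the threshold. Nppb efficiency kept its call in all 18, and Npr1 and Npr2 RNA kept theirs in all 16. With no filter on low values Nppb footprints were at -0.97 (limma adjusted p = 0.0587), and without a mean-variance trend at -0.97 (adjusted p = 0.871). Leaving out 1 heart at a time gave -1.09 to -0.88 for Nppb footprints (adjusted p from 0.00599 to 0.194) and -0.998 to -0.561 for Nppa RNA (0.00939 to 0.141). Nppa RNA was at -0.71 with quantile normalization and -0.79 without a trend, past the threshold in neither. The number of genes called in footprints, 2, became 1 with no filter, 6 with DESeq2 and 0 to 3 with 1 heart left out. Efficiency called 1434 genes, and 993 to 1220 with 1 heart left out. With the heart as a replicate block, fixed or random (the latter chosen after seeing the data), efficiency called 1852 and 1908 genes, with no member's call changed; Nppb was at adjusted p = 2.3e-05 and 0.001. Values near 0 that never passed the test changed sign, among them the relation of Nppa with Nppb RNA (r = 0.17 on values centred on genotype means). Npr1 footprints were -0.000265 with TMM factors and -0.00319 with quantile normalization. With 1 heart left out they ranged from -0.0633 to 0.0469, Corin footprints from -0.0176 to 0.105, Furin footprints from -0.351 to 0.00398 and Npr3 efficiency from -0.0879 to 0.216. Medians in place of means moved all 58 levels and ratios by less than 1 SD. The planned edgeR test of RNA reads was not run, because 43 to 72 genes with 1 to 20 reads in each knockout RNA library were too few to check the step at low values, although all values there were whole multiples of it. Npr3 RNA, at 78 to 151 reads per library, is the least precisely counted member.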
